A study of Mus musculus with 6 samples.

Results

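Cytochrome P450 enzymes of families 1 to 4 were examined in F4/80-selected liver cells of CCl4-treated mice. The set held protein-coding mouse genes whose symbols begin with Cyp1, Cyp2, Cyp3 or Cyp4 and follow the pattern of family, subfamily letter and gene number, apart from Cyp1a2, Cyp2e1 and Cyp2f2. Values were present for 57 of the 77 annotated genes of this kind, among 23394 genes in all, and the other 20 were not analysed here. For each gene the transcript of highest mean value across the 6 libraries was used. Of the 57 genes, 36 passed the filter on low reads and were tested, and 21 did not pass.

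Both groups were male C57BL/6 mice, 3 months old, kept on normal chow and given carbon tetrachloride (CCl4), a hepatotoxin, into the peritoneal cavity. The groups differed in genotype, wild type (WT) or knockout (KO), with 3 libraries each, and no library without CCl4 was analysed here. Neither the deleted gene nor the Cre or promoter, if any, is named in the labels. Livers were digested, cells carrying the macrophage antigen F4/80 were selected on magnetic beads, and polyadenylated RNA was sequenced with a strand-specific kit. Whether the libraries stem from separate animals is not stated, and p-values therefore measure only the spread between these libraries.

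Cytochrome P450 enzymes are heme proteins of the endoplasmic reticulum that insert an oxygen atom into drugs, steroids, fatty acids and eicosanoids, with electrons from the reductase Por. Most members of families 1 to 3 and of Cyp4a are made chiefly by hepatocytes, many of them near the central vein, where P450 enzymes also turn CCl4 into its toxic radical. Several Cyp4f enzymes inactivate leukotrienes, and Cyp4f18 is known from neutrophils and macrophages. A group of genes in this set is made more strongly in male or in female mouse liver under the control of growth hormone.

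With 1 transcript per gene the libraries held 10790842 to 22157238 reads, and mitochondrially encoded transcripts took 6.19% to 27.5% of them. Values are normalised counts, a read count divided by 1 factor per library. A list of 25 hepatocyte markers was higher in the KO libraries, with all 25 log2 changes above 0 and a median of 1.72. Of these markers 9 passed the test, against 2.09% of all tested genes called higher. Their summed level was 35149 to 116660 normalised counts in WT and 145990 to 262420 in KO libraries, and no marker was at 0. The 4 of highest level, Alb, Hpx, Apoa1 and Ahsg, had log2 changes of 1.19, 0.71, 2.23 and 1.41. All 10 endothelial markers also had log2 changes above 0, and 5 passed, against 2.09% of all tested genes called higher. Their sums were 25301 to 47349 in WT and 54725 to 105150 in KO. The 5 tested erythroid markers all had log2 changes above 0, with a median of 3.05, and none passed. Erythroid sums were 1727 to 24927 in WT and 23674 to 201390 in KO, which overlapped. Macrophage markers, which fit the labelled cell type and were all above 0, summed to 49104 to 94248 in WT and 51679 to 62620 in KO, with a median log2 change of -0.02 over 10 genes. Csf1r, the highest of them, was wholly lower, with 38520, 33971 and 23867 in WT and 18223, 16167 and 15676 in KO (limma adjusted p = 0.127). Cd14 was wholly higher (limma adjusted p = 0.271). The 8 neutrophil markers had 1 log2 change above 0 and a median of -0.18, with sums of 11497 to 16738 in WT and 9839 to 16258 in KO. Of 7 Kupffer cell markers none was at 0, 4 had log2 changes below 0, the median was -0.64, and the sums were 24917 to 82048 in WT and 25591 to 36882 in KO. Marco, a scavenger receptor among them, had 21405, 39406 and 8525 in WT and 6628, 6660 and 5467 in KO, wholly lower. Clec4f, of the same list, was wholly higher, with 3190 ± 72.9 in WT and 7182 ± 2322 in KO (SD, n = 3 each). Neither passed, with limma adjusted p-values of 0.102 for Marco and 0.0537 for Clec4f. The part of these shifts in cell type markers in the P450 values was not tested, and fewer cells of a type cannot be told apart from less RNA per cell in such bulk samples.

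Some genes of the Cyp2c, Cyp2d, Cyp4a and Cyp4b subfamilies and Cyp4f14 were higher in the KO libraries, while Cyp4f16 and Cyp4f18, members at high level in WT, had the lowest log2 changes. By limma on log2(normalised count + 1), with Benjamini-Hochberg adjustment over 15619 genes, 9 of the 36 tested members were higher in KO at an adjusted p under 0.05, against 2.09% of all tested genes. They were Cyp2c23, Cyp2c50, Cyp2d9, Cyp2d10, Cyp2d22, Cyp2d26, Cyp4a12a, Cyp4b1 and Cyp4f14. None was lower in the limma test, against 0.352% of all tested genes, where 2 members, Cyp4f16 and Cyp4f18, had an unadjusted p under 0.05. edgeR called 5 members higher and 0 lower, against 1.41% and 0.397% of tested genes, and DESeq2 called 15 higher and 1, Cyp4f16, lower, against 6.14% and 2.88%. Those higher in DESeq2 but not in limma were Cyp1b1, Cyp2a12, Cyp2c70, Cyp2d40, Cyp2j5 and Cyp2j6. Below, a member is said to pass by the limma test unless another tool is named. The log2 change was above 0 for 31 of the 36 tested members, with a median of 1.29, beside 0.05 for all tested genes. In 19 of the 36 every KO library lay above every WT library, as in 13.7% of tested genes, and in 1, Cyp4f16, every KO library lay below, as in 9.25%. Counting the untested members too, 21 of the 57 lay wholly above and 2, Cyp4f16 and Cyp4f37, wholly below, against 9.88% and 7.30% of all 23394 genes.

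**Figure D1:**
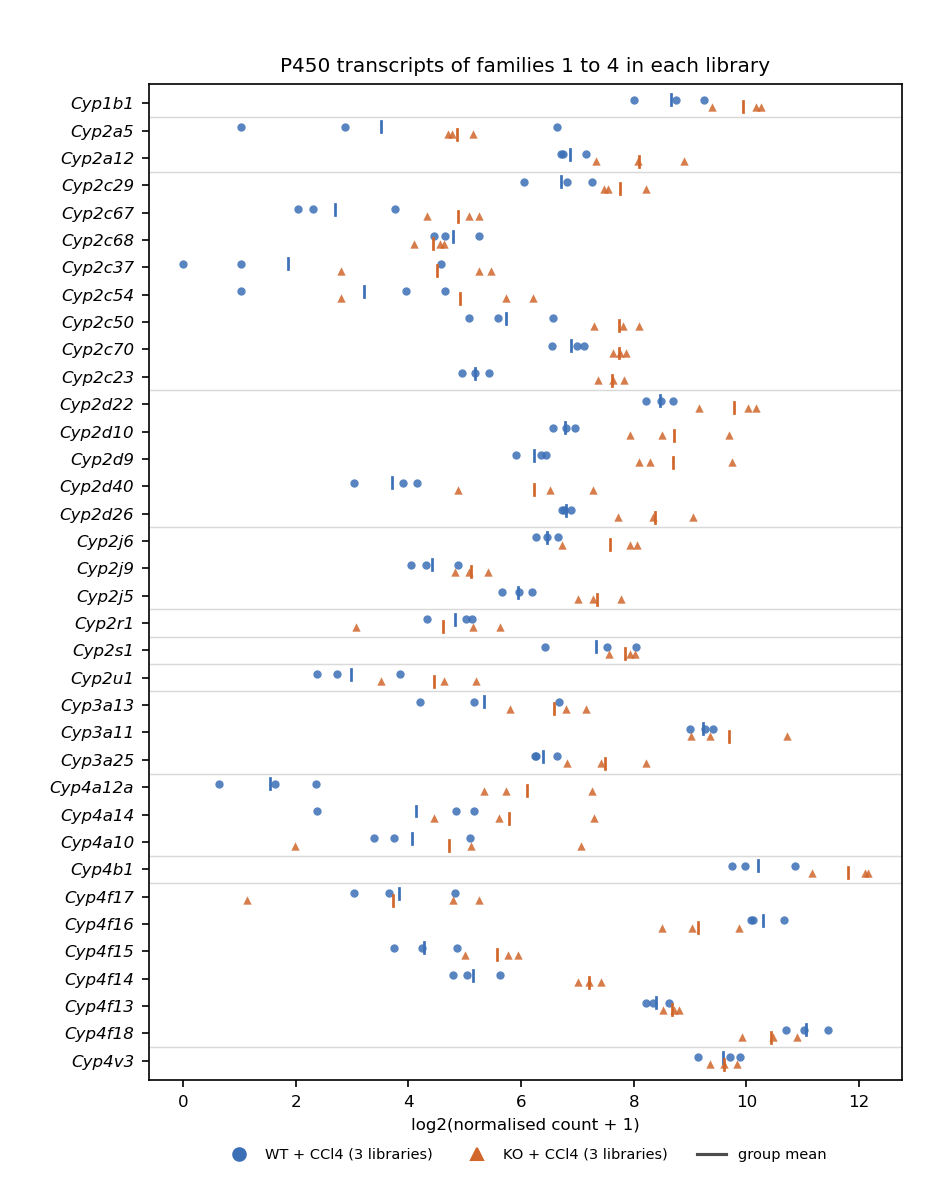
Each row is 1 of the 36 tested members, grouped by subfamily, and the x axis gives log2(normalised count + 1); circles are the 3 WT libraries, triangles the 3 KO libraries and vertical ticks the group means. The KO triangles lie to the right of all WT circles in 19 members, and to the left of all of them in Cyp4f16.

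Single libraries decided the number of calls. Without the third KO library 0 members passed, and without the second KO library 2 did, Cyp2c23 and Cyp2d9. Leaving out the first or the third WT library left 3 members each, leaving out the second WT library left 5, and leaving out the first KO library gave 12 higher and 1 lower. The third KO library held the highest value of 20 of the 36 tested members, and it also had the highest mean hepatocyte marker level, 12.2 on the log2 scale, against 11.4 in both other KO libraries and 9.26 to 10.2 in WT. Over 15 alternative settings Cyp2c23 passed in 14, Cyp2d9 and Cyp4a12a in 13 and Cyp4f14 in 11, and the other 5 members in 6 to 8.

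**Figure D2:**
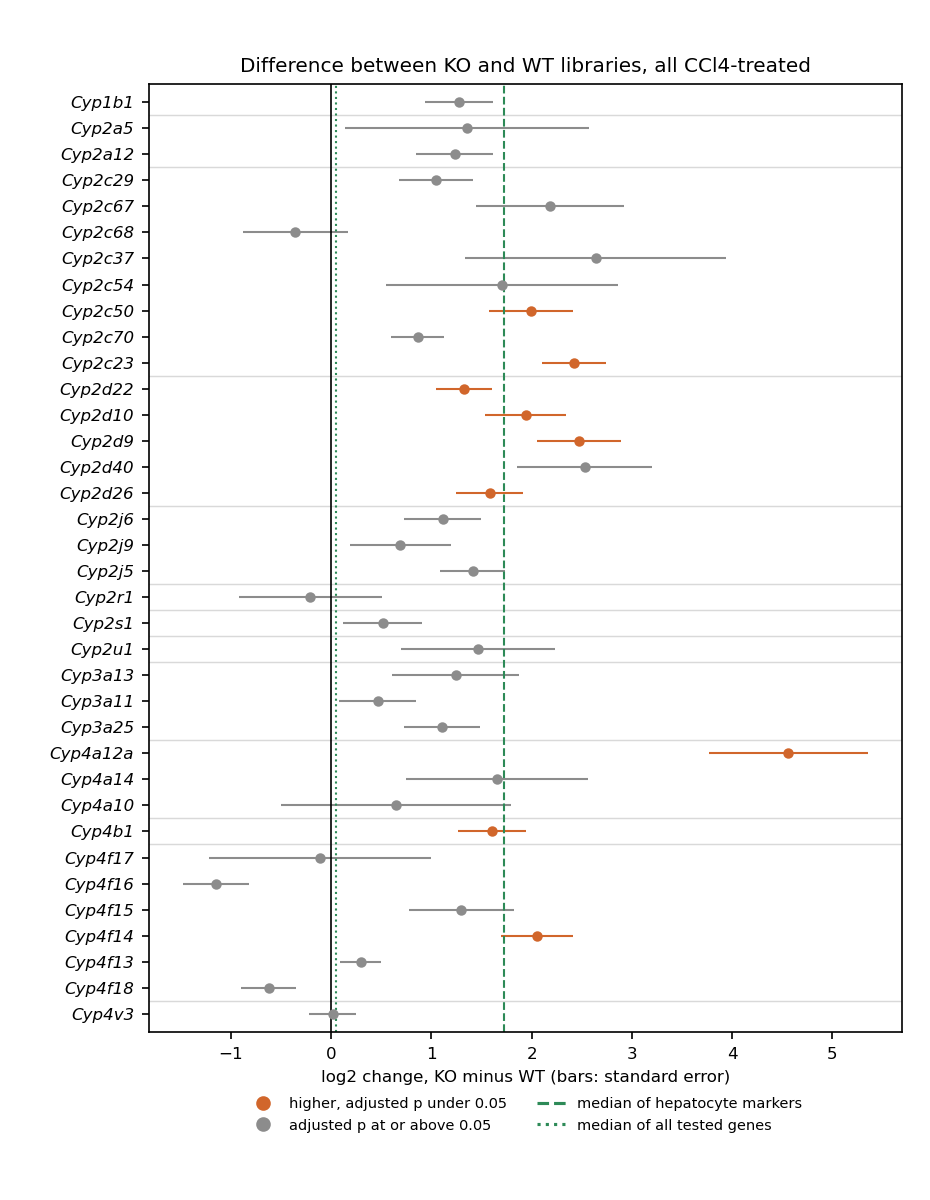
Points give the log2 change from WT to KO (x axis) of each tested member and bars its standard error from limma; the 9 coloured points passed an adjusted p of 0.05. Most members lie between the dotted line, the median of all tested genes at 0.05, and the dashed line, the median of the hepatocyte markers at 1.72, with Cyp4a12a far to the right at 4.56.

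The Cyp2d genes, relatives of the human drug-metabolising CYP2D enzymes, lie together on chromosome 15. All 5 tested members had every KO library above every WT library, and 4 of them passed. Cyp2d9 (ENSMUSG00000068086, chr15:82433437-82456845, GRCm38), a testosterone hydroxylase made more strongly in males, stood at 85.5, 58.8 and 80.9 normalised counts in the WT libraries and at 271, 311 and 853 in the KO libraries. The lowest KO value was thus well above the highest WT value, and the third KO library stood apart from the others. Its log2 change was 2.47 (SE 0.42, limma adjusted p = 0.0252). Cyp2d10 went from 110, 123 and 93.8 in WT to 244, 362 and 827 in KO (log2 change 1.94, SE 0.40, limma adjusted p = 0.0459). Cyp2d26 rose from a mean of 110 ± 6.78 (SD, n = 3) to 355 ± 163 (SD, n = 3), and Cyp2d22, which is also made outside the liver, from 355 ± 58.1 to 923 ± 309 (SD, n = 3 each). Cyp2d40 did not pass, with values of 7.21, 16.8 and 14.04 in WT and 155, 28.6 and 90.5 in KO (log2 change 2.53, limma adjusted p = 0.0851). Unlike its neighbours it was highest in the first KO library, and 24.1% of its 50-base stretches occur in other genes. Cyp2d11 and Cyp2d12 had 3 reads and 2 reads over all libraries. Summed over the 7 genes, the subfamily held 662 ± 69.2 in WT and 2327 ± 1024 in KO (SD, n = 3 each), 3.51 times as much. Of the 50-base stretches of the Cyp2d10 transcript 40.5% also occur in transcripts of other genes, as do 29.0% of those of Cyp2d9, so their reads may be divided uncertainly among the copies.

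**Figure D3:**
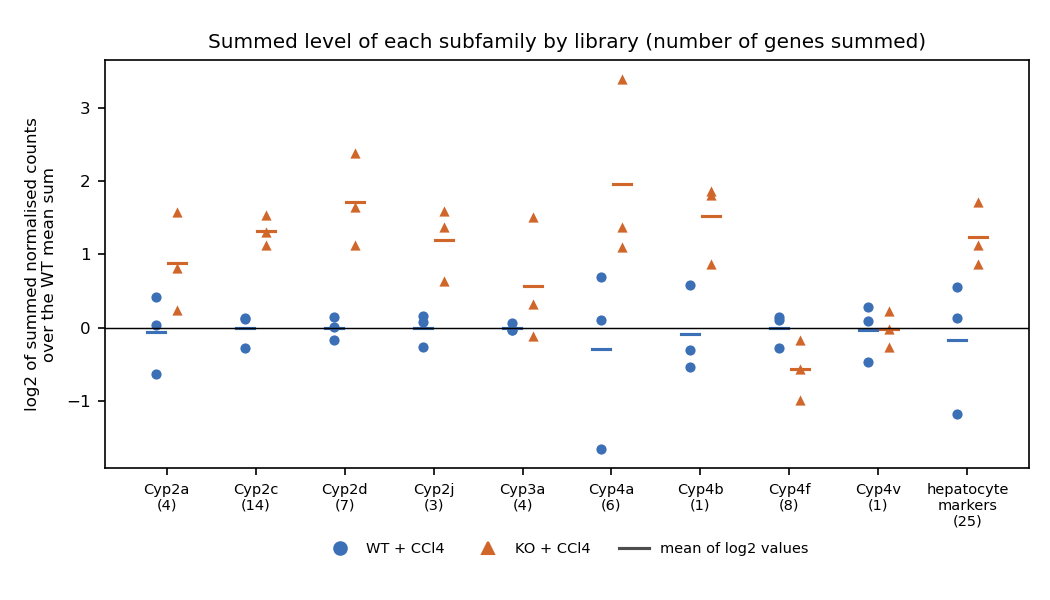
The y axis gives the log2 of each library's summed normalised counts over the WT mean sum, for 9 subfamilies with the number of genes summed and for the 25 hepatocyte markers; circles are WT, triangles KO and dashes the means of the log2 values. KO triangles lie above all WT circles for Cyp2c, Cyp2d, Cyp2j, Cyp4a, Cyp4b and the markers, while the Cyp4f triangles tend downward and the Cyp4v symbols overlap.

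Cyp2c and Cyp2j enzymes convert arachidonic acid to epoxides, lipid mediators that act on vessels. The list of 11 such epoxygenases had 7 tested members, of which 2 rose, Cyp2c23 and Cyp2c50, against 2.09% of all tested genes. All 7 log2 changes were above 0, with a median of 1.41. Cyp2c23 (ENSMUSG00000025197, chr19:44005022-44029208), also named Cyp2c44, had 29.9, 42.0 and 35.4 normalised counts in WT and 198, 164 and 226 in KO. The groups were far apart and each was tight, and the log2 change of 2.42 (SE 0.32, limma adjusted p = 0.0144) had the smallest adjusted p among the members. Its transcript shares no 50-base stretch with another gene. Cyp2c50 had 93.8, 32.5 and 47.2 in WT and 271, 156 and 224 in KO (log2 change 1.99, SE 0.42, limma adjusted p = 0.0470). Since 30.7% of its 50-base stretches occur in other genes, most often Cyp2c37, its level is uncertain.

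Among the other Cyp2c genes, Cyp2c70, which makes the muricholic bile acids of mice, had 119 ± 22.8 in WT and 214 ± 17.3 in KO (SD, n = 3 each), and Cyp2c29 had 110 ± 43.6 and 220 ± 67.9. Neither passed, with limma adjusted p-values of 0.117 and 0.171, although their groups did not overlap. Cyp2c37 and Cyp2c54, the latter on the epoxygenase list, varied widely, from 0 to 23.0 and 1.03 to 24.1 in WT and from 5.96 to 43.2 and 5.96 to 72.7 in KO. Of their 50-base stretches 30.1% and 25.7% occur in other genes. Cyp2c38 and Cyp2c39, the latter a hydroxylase of retinoic acid, had 7 and 5 reads over the WT libraries and 22 and 16 over the KO libraries. Cyp2c55 and Cyp2c65 had 18 and 59 WT reads and 17 and 25 KO reads. The Cyp2c sum was 397 ± 60.2 in WT and 1002 ± 143 in KO (SD, n = 3 each).

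Cyp2j5 had 49.5, 72.5 and 61.8 normalised counts in WT and 128, 217 and 155 in KO, wholly separate groups with a log2 change of 1.41 (SE 0.33) that did not pass (limma adjusted p = 0.0567). Cyp2j6, found in many tissues, had 87.6 ± 11.6 in WT and 205 ± 88.1 in KO, and Cyp2j9 had 21.0 ± 6.84 and 33.9 ± 7.08 (SD, n = 3 each). Their limma adjusted p-values were 0.161 and 0.536.

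Cyp2c67 and Cyp2c68 are neighbouring genes on the minus strand of chromosome 19 whose mean values ran in opposite directions. Cyp2c67 (chr19:39608842-39649051) had 3.09, 12.6 and 3.93 normalised counts in WT and 32.8, 19.1 and 37.2 in KO, with no overlap. Cyp2c68 (chr19:39688834-39741054) had 37.1, 21.0 and 24.1 in WT and 23.8, 22.6 and 16.1 in KO, with overlap. Neither log2 change passed, at 2.19 (limma adjusted p = 0.153) and -0.36 (0.784), and the difference between the genes was not tested. Cyp2c67 shares 52.8% and Cyp2c68 43.3% of its 50-base stretches with other genes, most with Cyp2c40, which had 1 WT read and 4 KO reads. Their upstream sequences are shown because the genes are close copies, from up to 250 bases before the transcript start to the start, bases in annotated exons left out, in RefSeq's GRCm38.p6 table, on the strand of the gene. Capitals mark CAAAGTCCA, a form of the site of the hepatocyte factor HNF4, TATAAA, the TATA box, and TTGCNNAA, a form of the C/EBP site, each searched on both strands and without overlap here. The first sequence is chr19:39649052-39649292 and the second chr19:39741102-39741351.
Cyp2c67: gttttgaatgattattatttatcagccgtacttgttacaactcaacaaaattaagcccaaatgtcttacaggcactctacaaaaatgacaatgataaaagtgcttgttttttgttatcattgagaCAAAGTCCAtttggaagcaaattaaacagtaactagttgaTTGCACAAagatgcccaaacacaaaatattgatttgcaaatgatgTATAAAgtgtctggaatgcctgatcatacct
Cyp2c68: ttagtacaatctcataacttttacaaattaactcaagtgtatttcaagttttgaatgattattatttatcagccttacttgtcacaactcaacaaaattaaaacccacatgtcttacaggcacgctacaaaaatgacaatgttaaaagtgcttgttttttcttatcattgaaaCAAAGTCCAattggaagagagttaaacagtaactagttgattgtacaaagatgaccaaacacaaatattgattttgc
Both hold CAAAGTCCA. The table's start of Cyp2c68 lies 47 bases upstream of the start of the transcript kept, so the windows cover only part of the same stretch. The place of the TTGCNNAA match of Cyp2c67 lies in both windows, and the Cyp2c68 letters there do not match. The TATA box of Cyp2c67 lies beyond the end of the Cyp2c68 window and cannot be compared. CAAAGTCCA lies within 250 bases of the start in 6 of the 41 members with a usable window (14.6%), all of them Cyp2c genes, and in 0.384% of 32851 promoters of the table. Cyp2c40, Cyp2c67, Cyp2c68 and Cyp2c69 are among them and have similar upstream sequences, so their matches are not independent.

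Among the listed enzymes induced by foreign compounds no tested gene passed in limma, and Cyp3a11 was uneven between libraries. Cyp3a11, the main mouse relative of human CYP3A enzymes and a target of the receptor Nr1i2 (PXR), had 680, 616 and 512 normalised counts in WT and 514, 654 and 1677 in KO. Only the third KO library lay above the WT range, the log2 change was 0.46 (SE 0.38, limma adjusted p = 0.590), and it was -0.046 without that library. Cyp3a25 had 83.0 ± 13.2 in WT and 193 ± 95.1 in KO (SD, n = 3 each), and its groups did not overlap. Cyp3a13, found in gut and liver, had 51.3 ± 44.5 and 103 ± 44.0 (SD, n = 3 each), with overlap. Of 7 genes induced through Nr1i3 (CAR) or Nr1i2, 5 were tested, and all 5 log2 changes were above 0 with a median of 1.11. Cyp2b10, the classical CAR target, had 0, 5 and 16 reads in WT and 0, 0 and 3 in KO. Cyp3a59, a close copy of Cyp3a25, had 48 WT reads and 30 KO reads.

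Of the targets of the aryl hydrocarbon receptor, Cyp1b1, which is also made by mesenchymal and endothelial cells, had 604, 432 and 254 normalised counts in WT and 672, 1152 and 1227 in KO. All KO values were above the WT values, the first KO library by little. The log2 change of 1.28 (SE 0.34) did not pass in limma (adjusted p = 0.0828) and passed in DESeq2 (adjusted p = 0.0142). Cyp1a1, the classical target, was near the detection limit with 7, 2 and 7 reads in WT and 8, 15 and 12 in KO. The scaled read ratio was 3.01 (95% interval 1.62 to 5.82, counting error only).

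The Cyp2a genes act on coumarin and steroids. Cyp2a12 had 106, 142 and 103 normalised counts in WT and 161, 268 and 472 in KO, without overlap (log2 change 1.23, SE 0.38, limma adjusted p = 0.122). Cyp2a5, the coumarin hydroxylase, had 1.03, 6.30 and 98.8 in WT and 34.3, 25.02 and 26.2 in KO. Its WT libraries spanned a range that enclosed all KO values, and the sign of its log2 change depended on the tool, 1.36 in limma, -0.43 in edgeR and -0.39 in DESeq2. Cyp2a22 had 0, 7 and 17 reads in WT and 1, 0 and 0 in KO, and 25.7% of its 50-base stretches occur in Cyp2a12.

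Cyp4a enzymes hydroxylate the end of fatty acid chains, and Cyp4a12a, the male-biased form, makes a vasoactive hydroxylated arachidonic acid. Cyp4a12a (ENSMUSG00000066071, chr4:115299046-115332815) had 4.12, 2.10 and 0.562 normalised counts in WT, from 4, 2 and 1 reads. In the KO libraries it had 52.1, 39.3 and 151, from 35, 33 and 179 reads. Every KO value was several times the highest WT value, and the log2 change of 4.56 (SE 0.79, limma adjusted p = 0.0267) was the highest among the 36 tested members. Cyp4a12b (chr4:115411624-115439034), its copy, had 0 reads in each WT library and 7, 6 and 87 in the KO libraries, so that most of its reads came from the third KO library. It did not pass the filter on low reads, and without that filter its limma adjusted p was 0.0666. The coding sequences of both genes have 1524 bases and differ at 23 of them, and 48.9% of the 50-base stretches of the Cyp4a12a transcript occur in Cyp4a12b. A window of 60 coding bases, 624 to 683 from the start codon, shows where their reads differ, with the 4 differing bases in capitals, read from the GRCm38 transcripts on their own strand.
Cyp4a12a: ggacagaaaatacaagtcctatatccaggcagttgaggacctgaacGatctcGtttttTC
Cyp4a12b: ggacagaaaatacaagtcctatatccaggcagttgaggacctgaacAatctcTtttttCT
With both genes added, which the division of reads between them does not affect, there were 4, 2 and 1 reads in WT and 42, 39 and 266 in KO.

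Members of the male-biased list (Cyp2d9, Cyp4a12a and Cyp4a12b) summed to 77.3 ± 14.8 normalised counts in WT and 590 ± 423 in KO (SD, n = 3 each), 7.63 times as much, and 4.47 times as much without the third KO library. The KO libraries held 334, 357 and 1078, so the third stood apart. The female-biased list had 9 entries, of which 4 had values and none passed the filter on low reads. Its members together had 8, 16 and 36 reads in WT and 0, 4 and 2 in KO, the reverse order, with the KO libraries all below the WT libraries. Cyp2a4, a steroid hydroxylase, had 0, 15 and 18 reads in WT and 0, 0 and 2 in KO. Cyp2b9 had 7, 0 and 18 reads in WT and 0 in each KO library. Without the low-read filter their limma adjusted p-values were 0.463 and 0.333. Cyp2a4 shares 36.1% of its 50-base stretches with Cyp2a5. Cyp2c40 and Cyp2c69 had 5 reads and 1 read over all libraries.

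**Figure D4:**
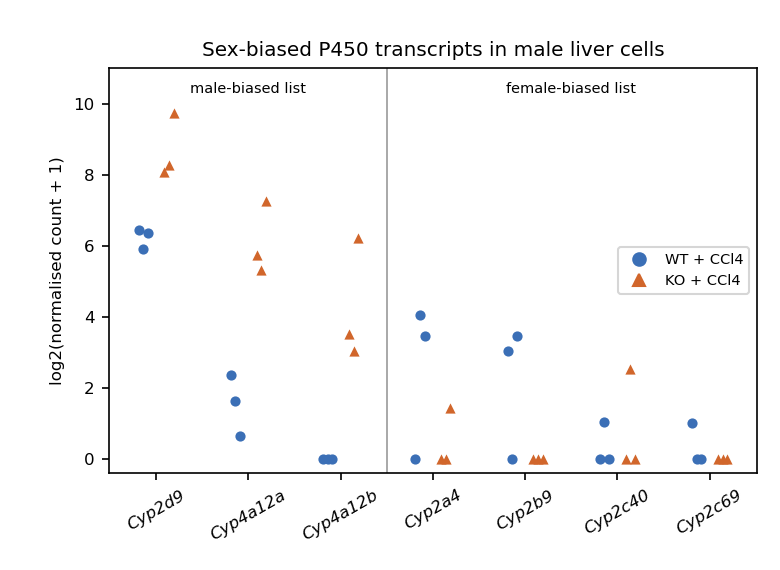
The y axis gives log2(normalised count + 1) of the 3 male-biased and the 4 measured female-biased genes in each library; circles are WT and triangles KO. KO triangles lie above all WT circles for the male-biased genes, and most symbols of the female-biased genes lie at or near 0.

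The other Cyp4a genes, targets of the receptor Ppara, varied more within the groups than between them. Cyp4a14 had 27.8, 4.20 and 34.8 normalised counts in WT and 20.9, 47.7 and 156 in KO. Cyp4a10 had 12.4, 9.45 and 33.1 in WT and 2.98, 33.4 and 134 in KO, so that the KO group held both the lowest and the highest value. The log2 changes were 1.65 and 0.65 (limma adjusted p = 0.386 and 0.829), and that of Cyp4a10 was -0.53 without the third KO library. Cyp4a10 shares 30.5% of its 50-base stretches with other genes. Cyp4a31 had 22 WT reads, all in the third library, and 8 KO reads, and Cyp4a32 had 9 WT and 27 KO reads.

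Cyp4b1 (ENSMUSG00000028713, chr4:115624725-115647723), a fatty acid hydroxylase best known from the lung and also made outside hepatocytes, had 1011, 1872 and 861 normalised counts in WT and 2282, 4562 and 4400 in KO. The groups did not overlap, and the log2 change was 1.60 (SE 0.34, limma adjusted p = 0.0470). Per kilobase of transcript it was second among the members in WT, at 660, and first in KO, at 1981. Its share of the members' summed level per kilobase was 15.96% ± 7.34 in WT and 29.2% ± 6.82 in KO (SD, n = 3 each). The second KO library, highest for Cyp4b1, also had the highest endothelial marker sum, 105150, and the part of those cells was not tested.

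Cyp4f enzymes hydroxylate leukotrienes and long-chain fatty acids. Per kilobase, Cyp4f18 was the highest of all members in WT, at 1276, and second in KO, at 841. Cyp4f18 (ENSMUSG00000003484, chr8:71988482-72009626) had 2072, 1661 and 2781 normalised counts in WT and 1898, 1420 and 974 in KO, overlapping groups whose log2 change was -0.62 (SE 0.27, limma adjusted p = 0.274). Its share of the members' level per kilobase was 30.6% ± 7.71 in WT and 13.5% ± 6.93 in KO (SD, n = 3 each). Over 10.6% of its exons the gene Zfp961 lies on the opposite strand, and whether the counting used strand is not known from the labels.

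Cyp4f16 (ENSMUSG00000048440, chr17:32536558-32551798) had 1626, 1115 and 1079 normalised counts in WT and 939, 522 and 363 in KO. Every KO library was below every WT library, the opposite order to most members. Its log2 change was -1.15 (SE 0.33), which missed the threshold in limma (adjusted p = 0.0997) and in edgeR (adjusted p = 0.103) and passed in DESeq2 (adjusted p = 0.0184). Without the first KO library, which held its highest KO value, it was -1.52 with a limma adjusted p of 0.0225. It did not pass in limma without the second or without the third KO library. Cyp4f37, a close relative that lies downstream, had 18, 2 and 20 reads in WT and 1, 0 and 0 in KO, again wholly lower. Without the low-read filter its limma adjusted p was 0.190. Of the Cyp4f37 transcript 20.9% of the 50-base stretches occur in Cyp4f16, so these few reads may belong to either gene. Their upstream sequences, from the same RefSeq table and on the plus strand, are shown because these were the 2 members wholly lower in KO. Capitals mark GAGGAAGT or its reverse complement ACTTCCTC, a form of the site of PU.1, a transcription factor of macrophages and granulocytes. The first is chr17:32536307-32536556 and the second chr17:32621069-32621308.
Cyp4f16: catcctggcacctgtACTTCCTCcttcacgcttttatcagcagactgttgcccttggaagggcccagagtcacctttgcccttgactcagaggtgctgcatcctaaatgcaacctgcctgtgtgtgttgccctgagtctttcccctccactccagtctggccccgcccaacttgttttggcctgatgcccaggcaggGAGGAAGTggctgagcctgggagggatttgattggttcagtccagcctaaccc
Cyp4f37: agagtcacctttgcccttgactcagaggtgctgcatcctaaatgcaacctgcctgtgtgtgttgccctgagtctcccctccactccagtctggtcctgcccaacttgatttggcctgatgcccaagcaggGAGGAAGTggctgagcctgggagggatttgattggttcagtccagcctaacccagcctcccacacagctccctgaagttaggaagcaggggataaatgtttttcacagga
Searched on both strands, the motif occurs 2 times in the Cyp4f16 window and 1 time in that of Cyp4f37. It was present in 6 of 41 member windows (14.6%) and in 2.44% of all promoters. The other members with it were Cyp2a4, Cyp2a5, Cyp2a12 and Cyp4v3, of which Cyp2a12 was wholly higher in KO. The Cyp4f16 and Cyp4f37 windows share long stretches, as do those of Cyp2a4 and Cyp2a5, so these matches are not independent. The Cyp4f18 window did not hold these letters. A match describes the sequence only.

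Cyp4f14, a leukotriene hydroxylase of liver, went the other way. It had 26.8, 48.3 and 32.0 normalised counts in WT and 128, 169 and 146 in KO, well separated groups whose log2 change was 2.05 (SE 0.36, limma adjusted p = 0.0267). Cyp4f15 had 19.4 ± 7.97 in WT and 48.6 ± 15.4 in KO (limma adjusted p = 0.234), and Cyp4f13, found in many tissues, had 337 ± 49.5 and 412 ± 40.7 (SD, n = 3 each, adjusted p = 0.509). Cyp4f17 was low and uneven, with 7.21, 11.6 and 27.5 in WT and 26.8, 1.19 and 37.2 in KO. Its log2 change of -0.11 turned to 0.38 without the third WT library and to 1.19 without the second KO library. Cyp4f40 had 15 WT reads, all in the third library, and 1 KO read. Among the 6 tested Cyp4f genes 3 log2 changes were above 0 and 3 below, with a median of 0.09. Summed over 8 genes, the subfamily held 3866 ± 597 in WT and 2670 ± 749 in KO (SD, n = 3 each), 0.691 times as much.

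Of the members with a single gene in their subfamily, Cyp4v3, the counterpart of the gene mutated in human Bietti crystalline dystrophy, had 948, 836 and 564 normalised counts in WT and 651, 774 and 915 in KO. The groups overlapped throughout and the log2 change was 0.02 (SE 0.23). It was -0.20 without the third WT library, -0.11 without the third KO library and -0.041 with TMM factors, so no direction can be read. Cyp2s1, made in epithelia, had 176 ± 88.2 in WT and 230 ± 38.3 in KO, and Cyp2r1, which hydroxylates vitamin D, had 28.2 ± 7.98 and 30.1 ± 20.7 (SD, n = 3 each). The log2 change of Cyp2r1 was -0.21, and 0.56 without the first KO library. Cyp2u1, a fatty acid hydroxylase of brain and thymus, had 7.74 ± 4.95 in WT and 23.3 ± 12.7 in KO (limma adjusted p = 0.368), and a gene on the opposite strand covers 12.4% of its exons. Cyp2g1, an enzyme of the nasal lining, had 6 KO reads and Cyp4x1, known from brain, 2 WT reads. A list of 14 members that are broadly expressed or made mainly outside the liver had 12 tested, with a median log2 change of 0.60. Of the 12 tested 2 rose, Cyp2d22 and Cyp4b1, against 2.09% of all tested genes.

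To set the members beside the hepatocyte markers, the mean log2 level of the 25 markers was subtracted in each library and all genes were fitted again. The median member then had a log2 change of -0.54, against -1.78 for all tested genes. Cyp4a12a alone among the members was higher than the markers, by 2.73 on the log2 scale (SE 1.01, limma adjusted p = 0.00994), as were 0.230% of tested genes. In every KO library it stood nearer to the marker mean, at -5.69, -6.11 and -4.94, than in any WT library, at -7.75, -8.58 and -8.62. Without the third KO library the adjusted p was 0.109. Cyp2c23 and Cyp2d9 differed from the markers by 0.60 and 0.64, with limma adjusted p-values of 0.341 and 0.248.

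**Figure D5:**
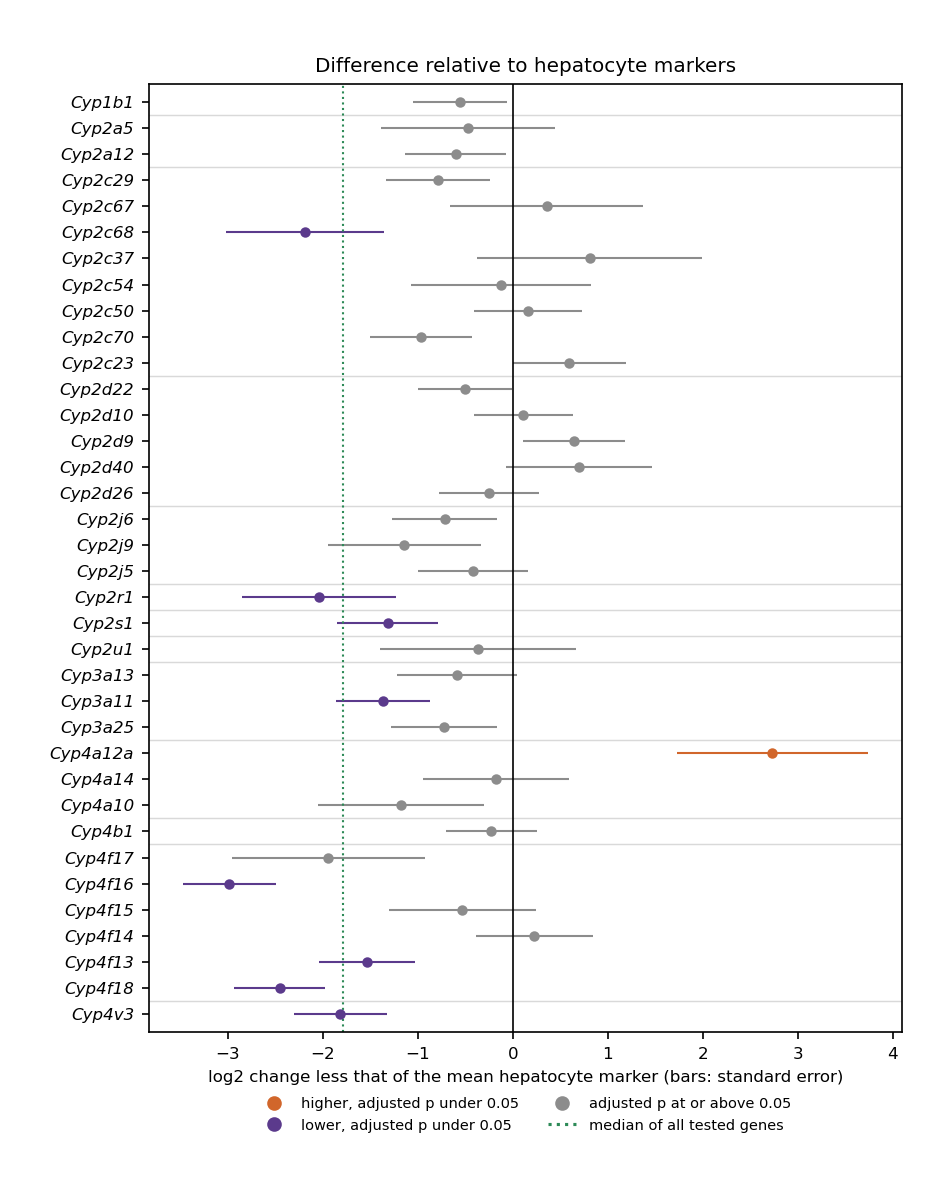
Points give each tested member's log2 change less that of the mean hepatocyte marker (x axis), with standard errors from limma; 0 means a change equal to the markers and the dotted line is the median of all tested genes at -1.78. Cyp4a12a lies to the right of 0, and Cyp4f16, Cyp4f18, Cyp2c68, Cyp2r1 and Cyp4v3 lie farthest left among the coloured points.

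Relative to the markers 8 members were lower, against 78.9% of all tested genes, so being lower was the usual case. The markers were not uniform, with log2 changes of 0.71 to 2.83 before the subtraction. Of the 25 markers 1, Hpx, was itself lower than their mean, by -1.12 on the log2 scale (limma adjusted p = 0.0223). The 8 members were Cyp4f16 (-2.98), Cyp4f18 (-2.45), Cyp2c68 (-2.19), Cyp2r1 (-2.04), Cyp4v3 (-1.81), Cyp4f13 (-1.54), Cyp3a11 (-1.36) and Cyp2s1 (-1.32), all on the log2 scale. The limma adjusted p of Cyp3a11 was 0.00859, and 0.0632 without the first KO library. Since the marker mean is common to all genes, its error is shared, and limma's prior treated it as known, which makes these p-values too small. With the variance of each gene alone, an alternative chosen after seeing the data, 1 member was higher, Cyp4a12a (adjusted p = 0.0345, against 0.0704% of genes), and 5 were lower, Cyp2c68, Cyp3a11, Cyp4f13, Cyp4f16 and Cyp4v3, against 52.8%.

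Genes that serve the P450 system were read from lists as well. Por, the electron donor of these enzymes, had a log2 change of -0.03, while Cyb5a, an accessory electron carrier, rose by 0.98 (SE 0.18, limma adjusted p = 0.0301) and Alad, an enzyme of heme synthesis, by 1.51 (SE 0.23, 0.0205). These were 2 of 19 tested genes of electron transfer and heme that passed, against 2.09% of all tested genes called higher. The median log2 change of the 19 was 0.42. The part of the shift in erythroid markers in these heme genes was not tested. Of 22 transcription factors of P450 genes 3 rose, against 2.09% of all tested genes, and the median log2 change was 0.75. They were Hnf4a, by 2.79 (limma adjusted p = 0.0205), Foxa3, by 2.23 (0.0470), and Nr1h4, by 2.01 (0.0420), all factors made by hepatocytes. The receptors Nr1i2 and Nr1i3 had log2 changes of 3.05 and 2.63 that did not pass (0.0774 and 0.111). In the growth hormone axis, which sets the sex-biased P450 genes, 1 of 10 passed, against 2.09% of all tested genes called higher. The 10 genes had a median log2 change of 0.37, and 6 were above 0. The receptor Ghr passed, with 281, 148 and 181 normalised counts in WT and 478, 472 and 599 in KO (log2 change 1.38, SE 0.27, limma adjusted p = 0.0385). Igfals, which carries the growth factor Igf1 in blood, had 11.3, 65.1 and 16.8 in WT and 124, 112 and 229 in KO, wholly higher (log2 change 2.60, SE 0.62, limma adjusted p = 0.0627). Bcl6, a repressor in that axis, had 2380, 2056 and 1938 in WT and 1390, 1209 and 765 in KO, without overlap (log2 change -0.96, limma adjusted p = 0.0662). Cux2, of the same list, had 15.5, 33.6 and 23.0 in WT and 52.1, 67.9 and 94.7 in KO, wholly higher (log2 change 1.56, limma adjusted p = 0.115). Of the 10 genes 3 lay wholly higher in KO and 2 wholly lower, as in 13.7% and 9.25% of tested genes. Without the third KO library 0 of these system genes passed, without the second KO library or without the third WT library 2, and without the second WT library 3.

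Cytochrome P450 families 5 and above, with 15 genes listed and 9 tested, had 1 gene higher, against 2.09% of all tested genes. Their median log2 change was 0.01. The genes set aside by the rule, Cyp1a2, Cyp2e1 and Cyp2f2, had log2 changes of 1.14, 2.35 and 1.34. TATAAA was found within 250 bases of the start, on either strand, in 18 of the 41 member windows (43.9%) and in 12.4% of all promoters of the table. Cyp2d9, Cyp2d10, Cyp2d26 and Cyp2d40 were among those members, and no Cyp4f gene was. The windows of close copies such as Cyp2d9 and Cyp2d10 share stretches, so their matches are not independent. TTCNNNGAA, a form of the site of the growth hormone effector STAT5, was found in 2 of 41, Cyp4b1 and Cyp4f13 (4.88%), and in 7.02% of all promoters.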

How the data were processed

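Polyadenylated RNA of F4/80-selected liver cells was sequenced in 6 libraries, which the labels assign to 2 genotypes. Tools named in the submitters' processing notes, without roles or order, are STAR 2.4.0k, HTSeq 0.5.3, DESeq 1.8.3, bcl2fastq 2.17 and SAMtools, and the build named there is GRCm38.p4. The strand setting, the annotation release and the treatment of reads with several matches were not given in the sources. Per the file headers, the authors deposited for each of 79382 transcripts a signal called normalised counts. In each library 100% of these signal values were whole multiples of the smallest, within 0.001, so whole reads were recovered. Of the transcripts, 78332 matched the GENCODE annotation of GRCm38 and 1050 were not used here. Isoforms of 1 gene share reads, so 1 was kept per gene.

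limma 3.58.1 in R 4.3.3 was run with a trended prior on log2(value + 1), genotype as the only term, on 15619 genes kept by filterByExpr, with two-sided p-values adjusted by the Benjamini-Hochberg method. Fold changes of low genes on this scale are uncertain in both directions. The added count shrinks them, and a single library near 0 can enlarge them. Cyp2c37, for example, had a log2 change of 2.64 in limma and 1.63 in edgeR. edgeR 4.0.16 (quasi-likelihood, TMM) and DESeq2 1.42.0 were run on the recovered reads as alternatives, and edgeR called 282 genes. The read ratio given for Cyp1a1 carries an exact 95% binomial interval, which covers counting error only. The fit was tested on simulated data, where larger changes were recovered more often than smaller ones and none of the sizes was recovered in full. With 3 libraries per group, changes can be missed.

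The members, lists and tests were chosen with earlier results of these data known. The naming rule took every called member, the 4 members of highest level per kilobase in each subfamily, tested members of the role lists, the called genes and the 2 of smallest p of the system lists and the 4 highest hepatocyte markers. Bcl6, Cd14, Clec4f, Csf1r, Cux2, Marco, Por, Nr1i2 and Nr1i3 fall outside it and were chosen after their values were seen. Alternatives were other pseudocounts, filters, scaling factors and tools, summed transcripts, the replicate number as a block and omission of single libraries. Upstream sequences came from RefSeq's GRCm38.p6 table, with entries for 44 members, 41 of them within 100 bases of the start of the transcript kept. The share of 50-base stretches found in other genes was computed for each member as a measure of uncertain read assignment.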

Additional observations from a re-analysis of the deposited data

How the results depend on the processing

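Deviations from the group means correlated at -0.0148, 0.0878 and -0.142 for same-numbered libraries. For differently numbered libraries the correlations ran from -0.128 to 0.143. Same numbers thus gave no closer likeness, and whether libraries shared a batch was not tested. With the replicate number as a block 539 genes and 9 members higher passed, 1 member, Cyp4f16, was lower, and 4 members were lower than the hepatocyte markers. The 381 called genes became 233 with summed transcripts, 1409 in DESeq2 and 8 to 809 when 1 library was left out. The 9 members higher in KO became 4 with summed transcripts, 4 with TMM factors, 5 in edgeR, 15 in DESeq2 and 0 to 12 with 1 library left out. The count of lower members, 0 in limma, was 1 in DESeq2 and 0 to 1 with 1 library left out. Relative to the markers, the 1 higher and 8 lower members became 2 and 17 without the filter on low values, 1 and 5 with the variance of each gene alone, and 0 to 1 and 7 to 10 with 1 library left out. The 6 called system genes became 3 in edgeR, 19 in DESeq2 and 0 to 9 with 1 library left out. The median log2 change of the tested members, 1.29, ranged from 0.96 to 1.55 when 1 library was left out and kept its sign in all alternatives. The sign of the log2 change turned for Cyp2a5 in edgeR (-0.43) and DESeq2 (-0.39), for Cyp2r1 in edgeR (0.084) and DESeq2 (0.092), for Cyp4f17 with a pseudocount of 5 (0.11), in edgeR (0.40) and in DESeq2 (0.43), and for Cyp4v3 with TMM factors (-0.041), in edgeR (-0.050) and in DESeq2 (-0.039). It also turned with 1 library left out, where it ranged from -0.71 to 0.56 for Cyp2r1, -0.046 to 0.81 for Cyp3a11, -0.53 to 2.02 for Cyp4a10, -0.88 to 1.19 for Cyp4f17 and -0.20 to 0.17 for Cyp4v3. The cause of these changes was not tested, although left-out libraries and summed transcripts also alter which genes are tested.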
